A study of Triticum aestivum with 8 samples.

Results

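Broad constant loci were stretches of accessible chromatin in developing wheat grain that stayed wide from the first to the last stage sampled. They were chosen by the widths of accessible chromatin regions (ACRs) in 4 deposited lists: a locus, formed from ACRs that overlapped by at least 1 bp, had to hold at least 1000 bp of ACR in each list, with a ratio of its DAP20 width to its DAP5 width above 0.5 and below 1.4. This rule kept 4641 of 180461 loci (2.57%), and 10.8% of the 42864 loci with an ACR in every list. Constant is a name for this rule only, which allowed a DAP20 width close to 0.5 of the DAP5 width and set no upper limit at DAP9 or DAP15. As widths made the choice, those below are a description of the selected loci and were not tested.

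The ATAC-seq libraries came from the cultivar AK58 (AiKang58), a bread wheat vernalized in the cold and then grown in a greenhouse, with no treatment or genotype other than that cultivar in any group. Endosperm freed of the embryo was taken at DAP5 and DAP9, and seed at DAP15 and DAP20, DAP being days after pollination (days after fertilization in the labels). Stage and tissue sampled therefore cannot be told apart where DAP5 or DAP9 is compared with DAP15 or DAP20. The ratio of DAP20 to DAP5 width is such a comparison. There were 8 sample records, 2 per stage, but 1 ACR list per stage, attached to the record of replicate 1. Whether a list describes that library or both was not stated, so replicate error was not known for any width. Read numbers were not part of the lists, the depth is unknown, and the tissue labels could not be checked against marker genes. Coordinates are those of the lists, whose genome build was not stated. No gene annotation or sequence of that build was used, and the loci are named by position only.

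In ATAC-seq the transposase Tn5 cuts DNA that nucleosomes leave free, and clusters of cuts are called as ACRs. In plants such regions often lie at promoters and at more distant regulatory elements, where transcription factors bind. Broad accessible stretches can hold several such elements side by side. Endosperm stores the starch and gluten proteins of the grain, and it passes from cell division to storage as the grain fills. Bread wheat carries the A, B and D subgenomes, each with 7 chromosomes, and the related chromosomes of the subgenomes form homoeologous groups.

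DAP20 was the list that limited the choice. Of the 42864 loci with an ACR in every list, the share that reached 1000 bp was 35.3% for the DAP5 list, 37.6% for DAP9, 32.5% for DAP15 and 20.2% for DAP20. In all 4 lists together 5482 loci (12.8%) did so. A further 3467 loci of every list reached 1000 bp in the 3 other lists and held a narrower ACR at DAP20, against 720 that were too narrow only at DAP15, 618 only at DAP5 and 288 only at DAP9. Besides these, 572 loci reached 1000 bp in the 3 other lists and had no ACR at DAP20, and 90, 54 and 87 had none at DAP15, DAP5 and DAP9. The ratio then removed 664 loci at or below 0.5 and 177 at or above 1.4. The limits did not fall into a gap of the data: 202 broad constant loci had a smallest width of exactly 1000 bp, and 1511 other loci of every list with a ratio inside the limits missed 1000 bp by at most 100 bp. The locus with the lowest total width among those at exactly 1000 bp (3D, 266788122 to 266789371) held 1100, 1000, 1100 and 1065 bp at DAP5, DAP9, DAP15 and DAP20, and a locus that missed the limit by 1 bp at DAP20 (7B, 624352533 to 624355132) held 1850, 1850 and 2600 bp at the earlier stages. The lowest ratio inside was 0.500206 (2A, 711540874 to 711543325), next to a locus at exactly 0.5 (1A, 490890378 to 490892461). The highest ratio inside was 1.39965 (5D, 478469330 to 478471029), next to a locus at exactly 1.4 (1D, 493113882 to 493116737).

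The selected loci were of nearly the same width at the first 3 stages and narrower at DAP20. At DAP5 the median width was 1850 bp (quartiles 1400 and 2448 bp), and DAP9 had the same median (1400 and 2450 bp). It was 1750 bp for DAP15 (1400 and 2400 bp) and 1450 bp for DAP20 (1250 and 1900 bp). The other 38223 loci of every list had medians of 650, 800, 650 and 500 bp, so that DAP20 was the narrowest list there too. The selected loci made up 5.43% of the ACRs at DAP5 but 11.9% of the covered base pairs, and 12.6, 13.7 and 14.0% of the base pairs of the 3 later lists. Their own covered length was smaller at DAP20, 7.92 Mb against 9.79 Mb at DAP5. The whole list covered 56.6 Mb at DAP20 and 82.3 Mb at DAP5, and the rule required 1000 bp at DAP20.

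**Figure D1:**
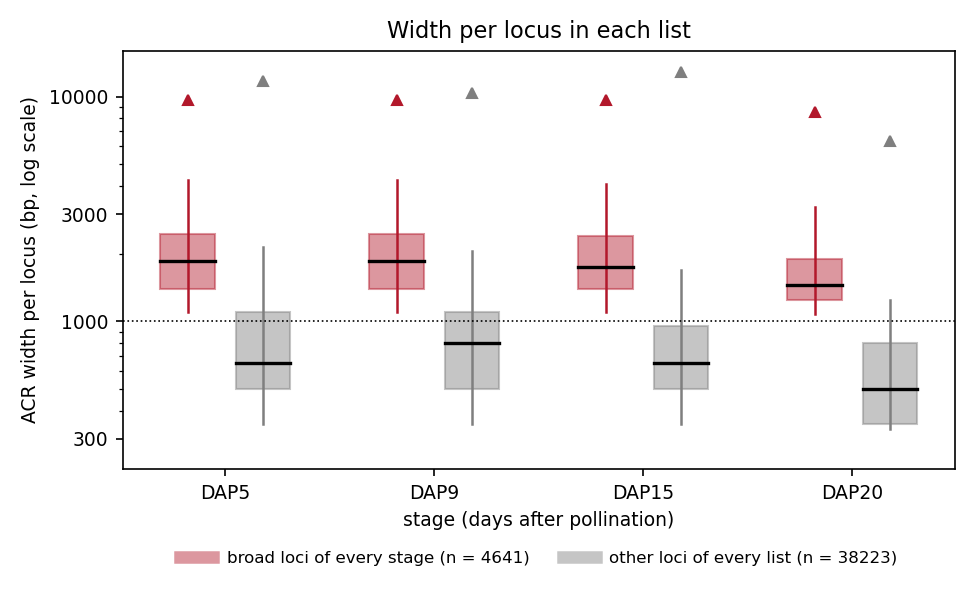
Width of ACR per locus on a log scale in each list, for the 4641 broad constant loci (red) and the other 38223 loci of every list (grey). Boxes span the quartiles with the median as a black bar, lines run from the 5th to the 95th percentile, triangles mark the widest locus and the dotted line is the 1000 bp limit of the selection. The red medians stand at 1850, 1850, 1750 and 1450 bp from DAP5 to DAP20.

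Within the limits of the rule, most loci were still narrower at the end than at the beginning. The DAP20 width was below the DAP5 width in 3449 loci (74.3%), above it in 945 (20.4%) and equal in 247 (5.32%), with a median ratio of 0.837. The other loci of every list, on which the rule set no limits, had a median ratio of 0.8125, so narrowing was not particular to the selected loci. The smallest of the 4 widths was found at DAP20 alone in 2455 loci (52.9%), at DAP15 alone in 699, at DAP5 alone in 524 and at DAP9 alone in 349. The largest was spread over the first 3 stages, with 1128 loci at DAP5, 1286 at DAP9 and 1200 at DAP15, and only 232 at DAP20. A steady order was uncommon: 324 loci (6.98%) were narrower at each stage than at the one before, and 10 were wider at each stage. The wider the locus was at DAP5, the lower its ratio, from a median of 1 in the 1354 loci under 1500 bp to 0.694 in the 653 loci of 3000 bp or more. This order is partly fixed by the rule, since a locus of 1000 bp at DAP5 cannot be narrower at DAP20 and stay selected.

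The coefficient of variation (CV) of the 4 widths had a median of 17.2% (quartiles 11.2 and 24.1%). In the other loci of every list, whose widths the rule did not limit, it was 29.4% (19.2 and 41.8%). Of the broad constant loci, 196 had a CV of at most 5% and 952 (20.5%) of at most 10%, and in 33 the width was identical in every list. Among the 821 loci of at least 2000 bp in every list, the steadiest lay on chromosome 1B (672929803 to 672932536), with a single ACR of 2450 bp at each of the 4 stages. Its ACRs were shifted against each other, and 2166 bp were common to all of them. The next lay on 5A (597839272 to 597841928), with 2600, 2599, 2600 and 2533 bp from DAP5 to DAP20 and 2484 bp in common, 93.5% of the locus. The third lay again near the end of the long arm of 1B (671998061 to 672000526), with 2300, 2300, 2300 and 2362 bp.

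At the upper end, 241 loci held at least 3000 bp in every list and 27 at least 5000 bp. The widest at DAP20 was a locus on 1B (682466388 to 682475802), which held 9200, 8950, 8950 and 8537 bp from DAP5 to DAP20. All 4 lists covered the same 8106 bp of its 9415 bp (86.1%), the highest share among the widest loci of the 21 chromosomes. A locus on 1D (490926379 to 490935993) was similarly steady, with 9250, 8500, 8350 and 8419 bp and 78.1% in common. The widest at DAP9 and DAP15 was another locus on 1D (463067505 to 463077566). It held 8250, 9700, 9659 and 4600 bp, and it was a single ACR at DAP15 and 5 ACRs at DAP20. At DAP5 the widest was on 6B (685960677 to 685970326), with 9650, 9500, 8250 and 5932 bp, in which the whole DAP20 width lay inside the ACRs of the other lists.

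The locus with the largest total width on each chromosome spanned between 7085 bp (5D, 221876913 to 221883997) and 10100 bp (4A, 11178942 to 11189041). The 4A locus held 8112, 9700, 9432 and 5082 bp, and its DAP20 width was divided over 6 ACRs. Of these 21 loci, 17 had their smallest width at DAP20, and all 21 consisted of several ACRs there, while 11 were a single ACR at DAP5, 9 at DAP9 and 7 at DAP15. Their ratio ran from 0.572 to 0.956 with a median of 0.678. The steadiest by ratio was on 2D (492508292 to 492516398), with 6847, 7850, 7650 and 6546 bp. On 5B (662031395 to 662040634) the widths were 8750, 6150, 7800 and 7459 bp, so that DAP9 was the narrowest list.

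The ratio compares only the first and the last stage, and some of the widest loci were narrower in between. The 5A locus (562095465 to 562104343) held 8680, 7200, 2900 and 4969 bp, and only 28.4% of it was common to all lists, the lowest of the 21. On 4B (641407001 to 641416818) the widths were 9537, 9400, 4050 and 5690 bp. This locus lies beyond the midpoint of 4B, where the DAP15 list kept only 49 of 154 loci, as described below. Its DAP15 width therefore cannot be read as a change of stage. On 7A, the widest locus (736557470 to 736565756) went the other way and had its largest width at DAP15, with 5150, 6050, 8000 and 4623 bp. It was divided over 4 ACRs at DAP5 and at DAP9 and was a single ACR at DAP15.

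Most of these 21 loci lay near chromosome ends, 16 of them in the outer 20% of the length at either end. Loci on 5D, 7B and 7D stood deep inside the chromosome. The 7B locus (319851493 to 319860992) was a single ACR of 9500, 9050 and 8750 bp at the first 3 stages and 5 ACRs of together 6800 bp at DAP20. The 7D locus (366445574 to 366454147) was likewise a single ACR of 8300, 8450 and 8300 bp and 3 ACRs of together 6750 bp. It held the longest unbroken stretch covered at every stage, 5750 bp, and its nearest other locus was 163094 bp away.

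**Figure D2:**
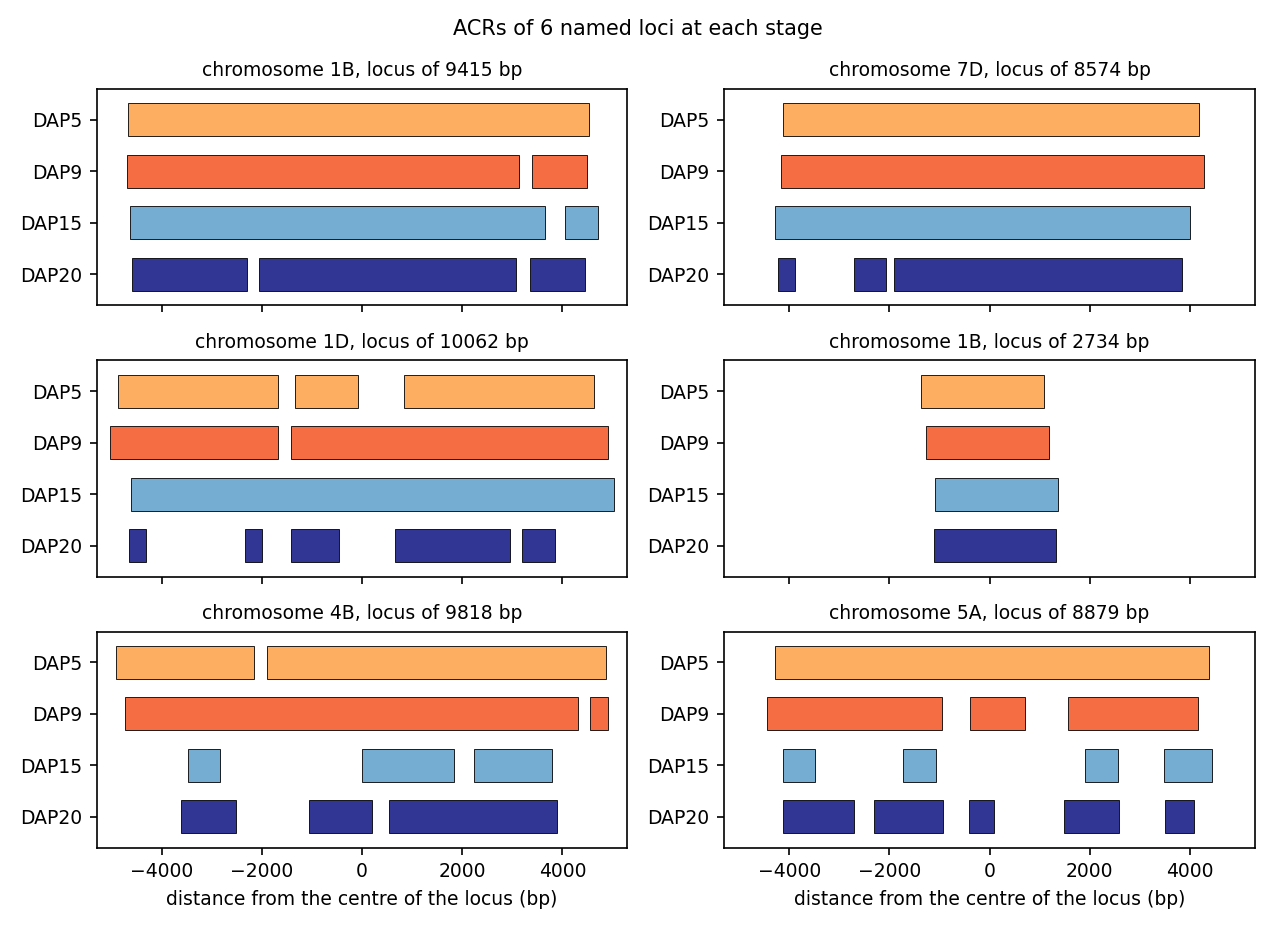
ACRs of 6 of the loci named above, drawn to scale as bars at each stage against the distance from the centre of the locus in bp. The 1B locus of 9415 bp was covered almost throughout at all 4 stages, and the 1B locus of 2734 bp was a single ACR of 2450 bp each time. At DAP20 the 1B locus of 9415 bp and the 7D and 4B loci were divided into 3 ACRs, and the 1D and 5A loci into 5.

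The stages covered the same part of a locus to a varying degree. The broad constant loci spanned a median of 2256 bp, of which a median of 1168 bp (55.6%) was covered in all 4 lists, against 1039 bp, 350 bp and 40.7% for the other loci of every list. At least 1000 bp in common was found in 3435 loci, and in 2555 loci (55.1%) as an unbroken stretch. In all, 6277967 bp lay in broad constant loci and were accessible in every list. At the extremes, at least 90% of the locus was common in 57 loci and less than 25% in 216, and in 5 loci no base pair was covered in all lists, because ACRs joined them only in a chain.

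The edges of the loci lay further inwards at DAP20 than at DAP5 in the median, by less than the 150 bp of a bin. From DAP5 to DAP9 the median distance between the left edges was 99 bp, and between the right edges also 99 bp. From DAP5 to DAP20 these distances were 139 and 150 bp, with a median shift inwards of 45 bp on the left and 62 bp on the right. Both edges lay further inwards at DAP20 than at DAP5 in 38.0% of the loci and further outwards in 11.2%, and in 49.2% 1 edge lay inwards and the other outwards. At DAP9 the shares were nearly balanced, with 22.0% inwards and 26.7% outwards of DAP5. The other loci of every list behaved much alike from DAP5 to DAP20. Both edges lay inwards in 37.8% of them and outwards in 14.3%, with median shifts inwards of 31 and 37 bp.

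The narrower DAP20 widths went along with a division of the loci into more ACRs. The share of loci with a single ACR was 76.6% for the DAP5 list, 86.3% for DAP9, 70.8% for DAP15 and 54.6% for DAP20, against 94.5, 95.9, 91.6 and 91.4% in the other loci of every list, which were also narrower. The mean number of ACRs per locus was 1.27, 1.16, 1.35 and 1.59 in the order of the stages. In 1895 loci (40.8%) the locus was a single ACR at every stage. In 752 loci it was divided only at DAP20, compared with 262 divided only at DAP15, 154 only at DAP5 and 37 only at DAP9. Division was tied to width: of the loci of at least 3000 bp at DAP5, 64.9% were a single ACR at DAP5 and 16.7% at DAP20, while of those under 1500 bp 83.0% and 73.0% were.

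Where a locus was divided both at DAP20 and at an earlier stage, most gaps of the earlier stage overlapped a DAP20 gap. From the first to the last stage the median gap was 314, 400, 285 and 363 bp long. None was shorter than 151 bp, and the authors joined bins up to 150 bp apart. In loci divided at both DAP5 and DAP20, 713 of 941 DAP5 gaps (75.8%, Wilson 95% interval 72.9 to 78.4%) overlapped a DAP20 gap. For DAP9 and DAP15 gaps the shares overlapping a DAP20 gap were 78.5 and 75.8%. In the opposite direction 63.2% of the 1117 DAP20 gaps overlapped a DAP5 gap. The intervals cover counting error only, because gaps of a locus are not independent. The overlap that gap and locus lengths alone would give was not computed, so the shares are a description. Many ACRs, here 35.3% of those in the selected loci at DAP20 against 1.77% at DAP9, had a width other than 350 bp plus a multiple of 150 bp. The part of this difference between the lists in the widths and gaps was not tested.

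The position of the loci was not used for their choice and could be compared. These tests ran over chromosomes, which do not replicate the experiment. Broad constant loci were densest in the D subgenome, with 0.416 ± 0.0627 per Mb (SD, n = 7 chromosomes), against 0.299 ± 0.0511 in A and 0.293 ± 0.0689 in B. A lay below D in 7 of 7 homoeologous groups by 0.117 loci per Mb (a difference A minus D of -0.117, exact two-sided sign-flip permutation p = 0.0156, adjusted over 6 tests 0.0469). The smallest p that this test can give is 0.0156. B lay below D in 6 of 7 groups, by -0.123 loci per Mb, and did not pass the threshold (exact permutation p = 0.0312, adjusted 0.0625). A and B differed by 0.00665 loci per Mb (A minus B, exact permutation p = 0.812, adjusted 0.906), a difference whose sign changed without 4B or without 1B. The lengths used for the density were the largest coordinates in the lists. Counted per chromosome and not per Mb, A still lay below D in 6 of 7 groups, by -22.7 loci, but did not pass (exact permutation p = 0.0469, adjusted 0.141). The call was also lost with at least 800 bp (-0.169 per Mb) and with a ratio above 0.7 (-0.0791 per Mb), each with an adjusted exact permutation p of 0.0938 and A below D in 7 of 7 groups. The exact permutation p before adjustment was 0.0156 both times, as in the main comparison. These losses arose in the adjustment, which depends on the other subgenome tests.

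The D chromosomes also held more loci of every list per Mb, with 3.39 to 4.28 against 2.55 to 3.31 in A and 1.86 to 3.09 in B, so the broad constant loci were set against all loci of every list on the same chromosome. They made up 10.1 ± 0.853% of these in A, 11.2 ± 0.988% in B and 11.0 ± 0.913% in D (SD, n = 7 chromosomes). A lay below D by -0.897 percentage points in 7 of 7 groups (exact permutation p = 0.0156, adjusted 0.0469). This call was lost with a minimum width of 800 bp (-0.270 points, adjusted exact permutation p = 0.578) and with a narrower ratio range (-0.449 points, adjusted 0.211). A and B differed by -1.01 points (exact permutation p = 0.109, adjusted 0.164) and B and D by 0.115 points (exact permutation p = 0.906, adjusted 0.906).

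Among chromosomes, 5D had the highest density with 0.507 broad constant loci per Mb (287 loci), followed by 1D with 0.499 (247 loci). The lowest was 4B with 0.186 (125 loci). As a share of the loci of every list, the range was from 8.82% on 7A (7.66 to 10.1%) to 12.9% on 6B (11.5 to 14.3%, Wilson 95% intervals). Group 6 had the largest contrast, with 145 loci on 6A, 286 on 6B and 169 on 6D. On 1B, the first 35% of the chromosome held 1 broad constant locus among 40 loci, compared with 15 among 1752 on 1A and 38 among 2088 on 1D. Loci of every list were few there as well, with 5 on 1B against 381 on 1A and 451 on 1D. The low count on 1B was thus not particular to broad constant loci. AK58 is known to carry a rye arm in place of the short arm of 1B, and its part in these counts was not tested.

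**Figure D3:**
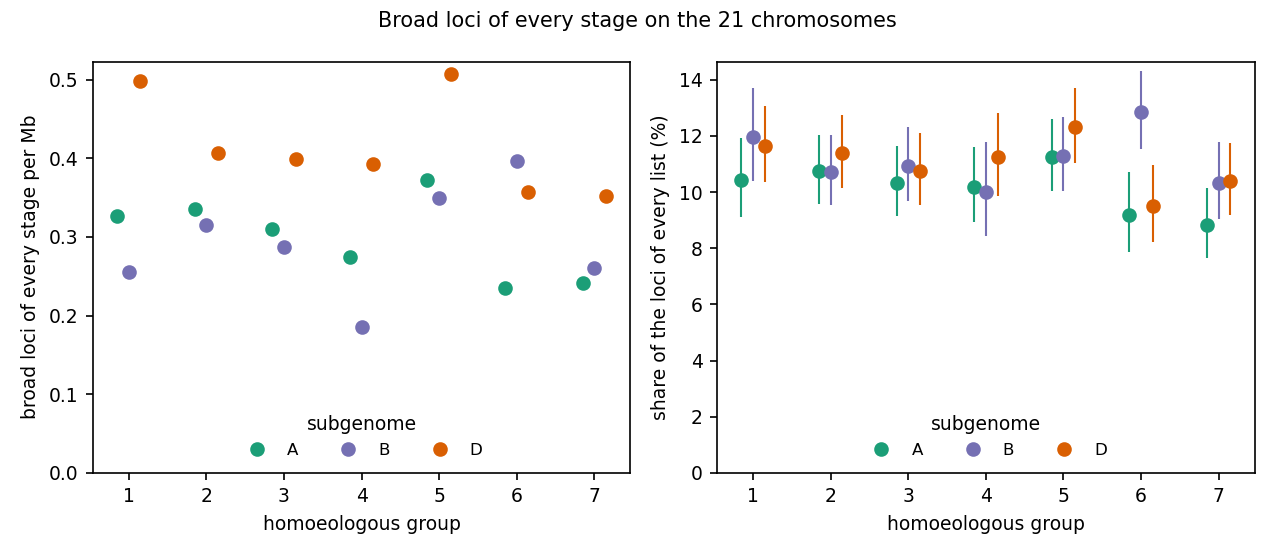
Broad constant loci on each chromosome by homoeologous group and subgenome (A green, B purple, D orange), per Mb on the left and as a percent of the loci of every list on the right with Wilson 95% intervals. D stands above A in all 7 groups in both panels. Chromosome 4B is lowest per Mb at 0.186 and 6B is highest in share at 12.9%.

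The 4B values rest on the DAP15 list, which differs from the other lists along that chromosome. By the other 3 lists alone, with the same limits, 242 loci of 4B were broad and constant, and 125 of these (51.7%, 45.4 to 57.9%) also held 1000 bp at DAP15. On the other chromosomes 4516 of 5122 (88.2%, 87.3 to 89.0%) did so. Beyond the midpoint of 4B 49 of 154 were kept, against 76 of 88 before it. Of the 4B loci that were not kept, 35 had no ACR at all at DAP15. The cause was not tested, and the tests that include 4B were repeated without it.

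Broad constant loci lay in the outer 20% at either end more often than other loci of every list, through the last 20% only. Between 80 and 95% of the length lay 29.7% of them and 25.5% of the others, and in the last 5% 18.6 and 13.3%. In the first 5% lay 11.1 and 9.56%, but between 5 and 20% only 7.80 against 12.5%. The first 20% thus held a lower share of the broad constant loci than of the others. The ends were not tested separately. Of the 4641 loci, 3119 (67.2%, 65.8 to 68.5%) lay within 20% of the length from an end, compared with 60.8% of the others (60.3 to 61.3%). Averaged over chromosomes the difference was 6.17 ± 5.28 percentage points (SD, n = 21 chromosomes), positive on 17 of 21 (two-sided sign-flip permutation test with 100000 resamples, p = 4e-05, adjusted over 5 tests 4e-05). It was 6.10 points without 4B and 4.30 points against other loci of every list with at least 1000 bp at DAP5 (adjusted permutation p = 0.000717). Its size depended on the width limit, with 13.4 points for at least 1500 bp and 3.48 points for at least 800 bp, both past the threshold. With the outer 30% it was 1.58 points and did not pass the threshold (permutation p = 0.15, adjusted 0.15). The share at the ends was higher in wider loci, from 59.0% of the broad constant loci under 1500 bp at DAP5 to 77.3% of those of at least 3000 bp. Among the other loci of every list it went from 58.9 to 69.8% over the same widths. At matched DAP5 width the broad constant loci were not always the higher: the shares were 59.0 against 58.9% under 1500 bp, 64.2 against 66.9% from 1500 to 2000 bp and 73.9 against 68.9% from 2000 to 3000 bp. No test was made within these widths.

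The profile along the chromosome had a further high stretch in the interior. Broad constant loci made up 14.5% of the loci of every list in the last 5% of the chromosome and 12.4% in the first 5%. Their share was 12.4% also between 80 and 95% of the length, but 7.03% between 5 and 20%, so that the ends were not alike. The share was 7.15% between 20 and 35%, 13.4% (12.5 to 14.5%) between 35 and 50% and 7.87% between 50 and 65%. On 17 of 21 chromosomes the share between 35 and 50% exceeded that between 20 and 35%, and on 18 of 21 it exceeded that between 50 and 65%. The first order was reversed on 1B, 5A, 5B and 5D, and the second on 5B, 5D and 7D. On 5B the shares were 11.0, 2.72 and 10.3% from 20 to 35%, 35 to 50% and 50 to 65%. The bounds of these zones were set after the profile had been seen and no test was made of them. The centromeres were not located in these coordinates. In the 30 Mb of each chromosome's interior that held the most broad constant loci, their share was highest on 6B at 319 to 349 Mb, where 26 of 75 loci of every list (34.7%) were broad and constant, followed by 7A at 345 to 375 Mb (23 of 77, 29.9%) and 3A at 303 to 333 Mb (20 of 69, 29.0%). It was lowest on 5B at 537 to 567 Mb (17 of 174, 9.77%).

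Broad constant loci between 35 and 50% of the length, called interior loci here, differed in form from those in the last 5%. Between 35 and 50% of the length, the median width was 1550 bp in each of the first 3 lists and 1384.5 bp in the last, with a median ratio of 0.880. In the last 5% it was 2000, 2000, 1850 and 1569 bp, with a ratio of 0.806. The interior loci were thus narrower and had the higher ratio, and a median of 60.3% of the locus was common to all lists there, against 54.2% in the last 5%. Not all zones followed a division into interior and ends. Between 5 and 20% of the length the median ratio was 0.869, and between 65 and 80% the median common share was 54.6%. Ratio and common share went with width in the selected loci, the ratio as given above. The common share had a median of 63.1% under 1500 bp at DAP5, 51.1% from 2000 to 3000 bp and 52.2% above. No comparison at matched width was made here. Fewer of the interior loci had another locus within 10 kb, 69.2% against 94.4% in the last 5%. Loci of any kind were sparser there. Within 50 kb lay a mean of 3.61 other loci around interior broad constant loci and 2.99 around the other loci of every list. In the last 5% these means were 9.07 and 7.87.

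**Figure D4:**
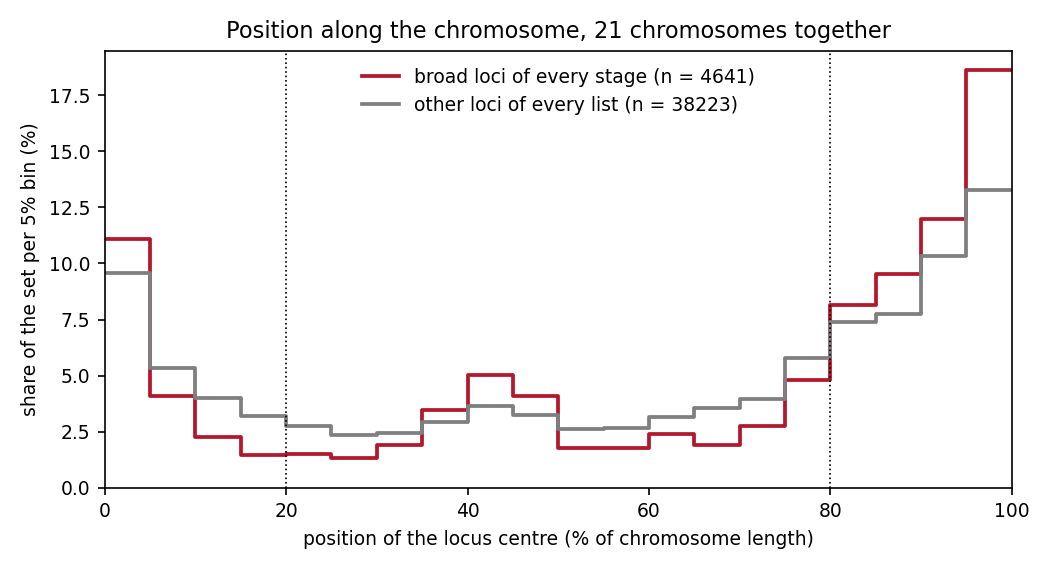
Share of the 4641 broad constant loci (red) and of the other 38223 loci of every list (grey) in bins of 5% of the chromosome length, all 21 chromosomes together. Dotted lines bound the outer 20% at either end. The red line is above the grey line in the first 5%, between 35 and 50% and in the last 20% of the length, and below it elsewhere.

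To ask whether broad constant loci lay in constant surroundings, the loci around them were examined, which the rule had not used. Of the neighbouring loci within 50 kb, broad constant loci left out, 25.9% (25.3 to 26.4%) had an ACR in every list, compared with 23.8% (23.6 to 24.0%) around the other loci of every list. The mean difference over chromosomes was 2.11 ± 1.31 percentage points (SD, n = 21 chromosomes), positive on 20 of 21 (permutation p = 1e-05, adjusted 1.25e-05, the smallest that 100000 resamples can give before adjustment being 1e-05). It was 2.07 points in the outer 20% and 2.39 points outside it, each past the threshold (adjusted permutation p = 7.5e-05 and 0.01). Against the other loci of every list with at least 1000 bp at DAP5 it was 1.55 points (adjusted permutation p = 0.000717). The difference was thus small but held in each of these comparisons.

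The widths of the neighbours were a further description. The 5235 neighbours of every list within 50 kb of a broad constant locus had a median ratio of DAP20 to DAP5 width of 0.768. In the 17580 loci of every list that had another such locus but no broad constant locus within 50 kb, it was 0.810, and it was lower near broad constant loci on 17 of 21 chromosomes. The neighbours of broad constant loci had the wider median in every list. From DAP5 to DAP20 it was 800, 850, 800 and 650 bp, against 780.5, 800, 650 and 500 bp. Their median was wider on 15 of 21 chromosomes at DAP5 and on 20 at DAP20. No test was made of these widths.

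Broad constant loci lay near each other. Of the 4641 loci, 1165 (25.1%, 23.9 to 26.4%) had another within 50 kb, while 13.7% (13.4 to 14.0%) of the other loci of every list had a broad constant locus that near. The difference was 11.1 ± 4.84 percentage points (SD, n = 21 chromosomes), positive on 21 of 21 (permutation p = 1e-05, adjusted 1.25e-05). It was 11.8 points in the outer 20%, 7.44 points outside it and 6.34 points against loci of at least 1000 bp at DAP5 (adjusted permutation p = 1.67e-05, 5e-05 and 0.0002).

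Broad constant loci also had more neighbours of any kind, a difference that did not pass the threshold against other loci of at least 1000 bp at DAP5. Another locus lay within 10 kb of 85.2% (84.2 to 86.2%) of them and of 79.2% (78.8 to 79.6%) of the other loci of every list, a mean difference of 5.51 points, positive on 21 of 21 chromosomes (permutation p = 1e-05, adjusted 1.25e-05). The number of other loci within 50 kb was 5.68 around broad constant loci and 4.66 around the others, a mean difference of 0.992, positive on 20 of 21 (permutation p = 1e-05, adjusted 1.25e-05). Against other loci of every list with at least 1000 bp at DAP5, the first difference was 0.631 points (positive on 12 of 21, adjusted permutation p = 0.34) and the second 0.204 loci (positive on 13 of 21, adjusted permutation p = 0.163).

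**Figure D5:**
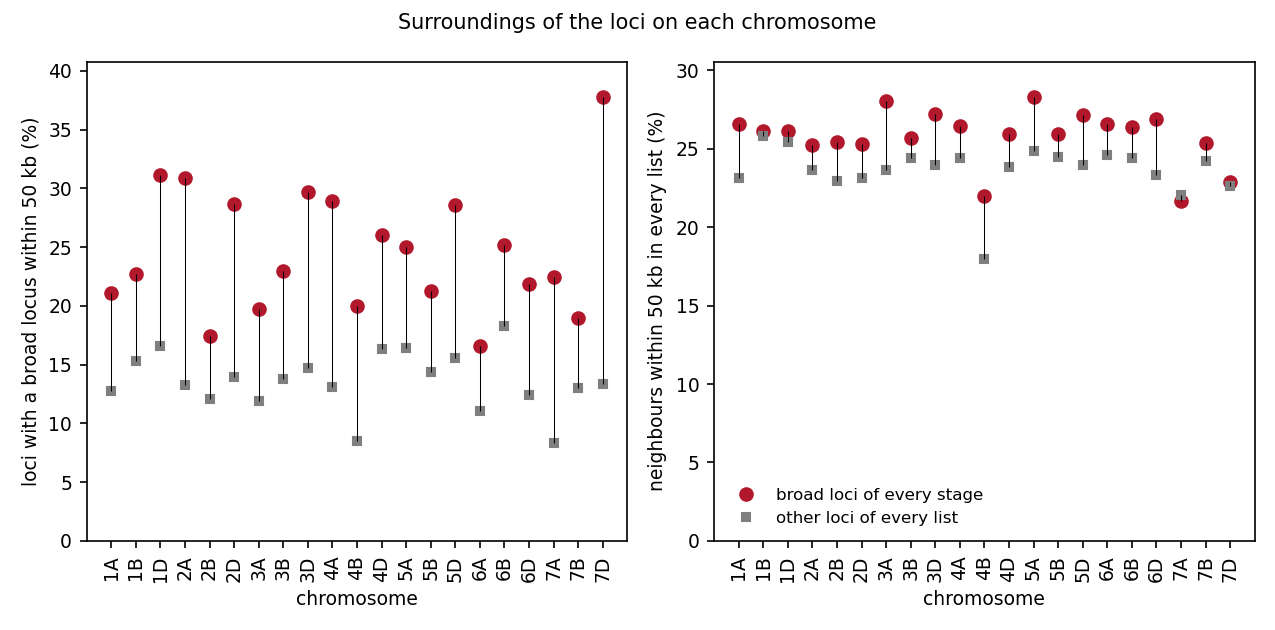
Surroundings on each of the 21 chromosomes for broad constant loci (red circles) and the other loci of every list (grey squares), joined by a line. The left panel gives the percent of loci with a broad constant locus within 50 kb, the right panel the percent of neighbouring loci within 50 kb that have an ACR in every list. Red stands above grey on 21 chromosomes on the left and on 20 on the right, the exception being 7A.

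Joined at up to 50 kb, the loci formed 3476 groups of a single locus, 434 pairs and 89 groups of at least 3 loci, which together held 297 loci. The largest group had 7 broad constant loci in 72594 bp near the end of 3D (613691528 to 613764121), and the next had 6 in 81061 bp near the beginning of 1D (2074002 to 2155062). The tightest 3 lay on 7A within 8246 bp (25855537 to 25863782), as part of a group of 5 in 19499 bp. The first of these 3 held 2600, 2450, 2245 and 1853 bp from DAP5 to DAP20, the second 2450, 2600, 1833 and 1917 bp, and the third 1988, 1850, 1250 and 1100 bp. All 3 were narrower at DAP15 and DAP20 than at DAP5 and DAP9. At the other extreme, a locus on 4D (154009028 to 154010577), chosen after its value was seen, was 954095 bp away from any other locus and held 1550, 1150, 1400 and 1150 bp.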

How the data were processed

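By the methods of the study, the authors aligned the trimmed reads with Bowtie2 to a wheat genome, removed duplicates, called raw peaks with MACS2, divided them into 150 bp bins, kept bins with enough Tn5 insertions, joined bins and removed blacklisted peaks. The methods name fastp for trimming and the submitters' processing notes name Trimmomatic 0.36. The build, the insertion minimum and any pooling of replicates were not given in the sources used here. The deposited values were the start and end of each ACR in bp (unit other), for 420451 ACRs in 4 lists, and steps of bin size and gap joining shape every width. A RefSeq gene table of another assembly was not used for positions, because its genes reached beyond the last ACR on 21 of 21 chromosomes, by up to 21.7 Mb.

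ACRs were merged, selected and compared with Python 3.11.15, numpy 2.4.6, pandas 2.3.3 and scipy 1.17.1, and figures were drawn with matplotlib 3.10.9. The code was tested on simulated data. Exact sign-flip permutation tests over 7 homoeologous groups and permutation tests over 21 chromosomes (100000 resamples) were two-sided, with Benjamini-Hochberg adjustment over 6 and 5 tests and a threshold of 0.05. Named loci were the widest in total on each chromosome, the widest in each list, that with the longest common stretch, the 3 of lowest CV among those of at least 2000 bp, the tightest 3 and those nearest to each limit. The members, lists and rules were chosen with earlier results of these data known. Genes, GC content and sequences, although planned, were not analysed here.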

Additional observations from a re-analysis of the deposited data

How the results depend on the processing

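No paired analysis was possible because a single ACR list per stage, attached to replicate 1, was analysed here, so leaving out a replicate was not possible either. Comparisons with loci of at least 1000 bp at DAP5, within or outside the outer 20%, and without chromosome 1B were chosen after the data had been seen. The number of loci was 8480 with at least 800 bp, 1715 with at least 1500 bp and 9471 without the DAP20 list, as follows from the rule. The median ratio of 0.837 became 0.816 with at least 1500 bp, 0.806 with no limit on the ratio, 0.909 with a ratio above 0.7 and 0.847 without the DAP9 list.

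In loci per Mb, A minus B changed sign to -0.00931 with at least 1500 bp, -0.00698 without 4B, -0.00415 without 1B and -0.00995 without the DAP15 list, and to -6 loci per chromosome. A minus D did not pass with at least 800 bp (-0.169), with a ratio above 0.7 (-0.0791) or per chromosome (-22.7). B minus D passed with at least 1500 bp (-0.0479), without the DAP20 list (-0.314) and without the DAP5 list (-0.180). In share, A minus B passed with at least 1500 bp (-0.804 points) and with 1000 bp in common (-0.697). A minus D did not pass with at least 800 bp (-0.270), with a ratio above 0.7 (-0.449) or with 1000 bp in common (-0.399). B minus D changed sign to -0.382 with no limit on the ratio, -1.33 without the DAP20 list and -0.283 without the DAP5 list. The share at the ends did not pass with the outer 30% (1.58 points). Against loci of at least 1000 bp at DAP5, a locus within 10 kb (0.631 points) and loci within 50 kb (0.204) did not pass. The cause was not tested. The clustering (16 alternatives) and the presence of neighbours in every list (16 alternatives) kept their direction and passed each time. Depth is unknown, and a locus absent from a list may have been missed there.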
